A study of Mus musculus with 10 samples.

Results

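The beta chain of the T cell receptor is described here through its 34 gene segments, 22 variable (TRBV) and 12 joining (TRBJ) segments. They are every name starting with TRBV or TRBJ among the assembled beta chains that were called productive, and they make up 34 of the 146 V and J names found over both receptor chains. The other 112 belong to the alpha chain. Cells came from mouse colorectal carcinoma, and each preparation gave a single-cell RNA library and a T cell receptor library that share cell barcodes. The combination group received S. chamaejasme (Stellera chamaejasme, a plant) together with anti-PD-1, an antibody that blocks an inhibitory receptor of T cells, and had 2 libraries of each kind. The S. chamaejasme group received the plant alone and had 1 library of each kind, and the untreated group had 2. All groups share the tumour type. The labels state no strain, age, dose or day, no tumour cell line, and not whether replicates were separate animals. The p-values therefore cannot be taken to measure spread between animals. Those of the segment fits rest on counting error and on a spread between libraries that was estimated partly over all segments together. No group received anti-PD-1 alone. The labels give no batch, and treatment and any batch that ran with it cannot be told apart.

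A T cell builds its beta chain gene by joining 1 V, 1 D and 1 J segment of the locus, with loss of bases at the ends and addition of bases that no segment encodes. The joint forms the CDR3 loop, the part of the chain that lies over the peptide, while the loops encoded by the V segment alone mainly touch the MHC molecule that presents it. CD8 T cells read peptides on MHC class I and CD4 T cells on MHC class II. Regulatory T cells are CD4 cells marked by the transcription factor Foxp3. D and J segments stand in a pair of clusters, each followed by its own constant gene, and TRBV31 lies beyond both clusters in the opposite orientation.

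The germline ends below are the stretches of the segments that can enter a CDR3. They are shown for the D segments and for some of the V and J segments named in the comparisons that follow. They were read from the GENCODE vM21 annotation of GRCm38 (mm10), chromosome 6, 5′ to 3′ on the coding strand. In V ends the capitals mark the codon of the conserved cysteine that opens the CDR3, and in J ends the codon of the conserved phenylalanine that closes it.
TRBV20: TGTggtgctaggga
TRBV31: TGTgcctggagtctca
TRBV13-3: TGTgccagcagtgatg
TRBV14: TGTgccagcagtttct
TRBV29: TGTgctagcagtttatc
TRBV23: TGCtccagcagtcaatc
TRBV15: TGTgccagcagtttagc
TRBV4 (named TRBV10 in the contigs): TGTgccagcagctaaga
TRBJ1-5: taacaaccaggctccgcttTTT
TRBJ2-7: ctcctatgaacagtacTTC
TRBD1: gggacagggggc
TRBD2: gggactgggggggc
TRBV20 lies at chr6:41188273-41188977, TRBV13-3 at chr6:41130147-41130585, TRBV14 at chr6:41135145-41135616 and TRBV29 at chr6:41271394-41271881, all on the plus strand. TRBV31 lies at chr6:41557691-41558452 on the minus strand. TRBV15 lies at chr6:41141188-41141658, TRBV23 at chr6:41216073-41216526, TRBJ1-5 at chr6:41535084-41535133 and TRBJ2-7 at chr6:41543810-41543856, on the plus strand. The annotation lists all of them as receptor V or J genes. Of the 21 germline V ends read, the end of TRBV4 was the one that held a stop codon, TAA, in frame with the cysteine codon.

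The RNA libraries held 27759543 and 26015879 UMIs (unique transcript tags) in the combination, 19999977 with S. chamaejasme and 8763821 and 15428707 in the untreated group. After filtering, cells with exactly 1 productive beta chain numbered 4133 and 3970 in the combination, 3657 with S. chamaejasme and 1380 and 2411 in the untreated group. A clone is a distinct V, J and CDR3 nucleotide sequence within a library, and these cells held 13909 clones. CD8-gated cells had at least 2 UMIs of Cd8a plus Cd8b1, the CD8 coreceptor genes, and none of Cd4, and CD4-gated cells had at least 1 UMI of Cd4 and none of the CD8 genes. The CD8 gate held 199 to 606 clones per library and the CD4 gate 363 to 1617, at medians of 4988 and 4757 UMIs per cell. Clones with cells in a gate numbered 7144 and clones with cells in neither gate 7131, and some clones were in both counts. Cells in neither gate had no part in the gate comparisons. Nkg7, a cytotoxic granule gene, had a UMI in a median of 82.5% of CD8-gated and 4.29% of CD4-gated cells, and Cd40lg, which encodes the helper T cell ligand for CD40, in 5.66% and 46.8%. Markers of B cells, macrophages, NK cells and gamma delta T cells stayed below 1% in median in both gates except Cd79b, at 4.47% of CD8-gated cells. A beta chain was recovered from fewer gated cells of the untreated libraries. The shares were 88.8% and 89.1% of CD8-gated cells in the combination, 83.4% with S. chamaejasme and 67.2% and 71.8% in the untreated group, and 87.5%, 89.2%, 77.6%, 68.6% and 73.9% of CD4-gated cells in the same order. The part of this gap in the treatment comparisons was not tested. Pairs of libraries shared 6 to 29 cell barcodes, and no shared barcode carried the same beta chain.

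Segment names were checked against the transcripts of the same cells. In 99.8% of cells the RNA library held a UMI of the V gene that the contig name pointed to. In 97.5% no other V gene of the cell had more UMIs, with ties included. For both values TRBV10 was read as Trbv4 and TRBV12-2+TRBV13-2 as Trbv13-2. That reading was taken from the same RNA libraries, so for these 2 names the match was not an independent check. Among cells with any other contig name, the V gene that a contig name pointed to had a UMI in 0.097% (Trbv30) to 17.2% (Trbv13-2). The 17.2% belongs to the name TRBV13-2, and its other cells include the 1413 cells named TRBV12-2+TRBV13-2. Trbv13-2 also had a UMI in 27.8% of TRBV14, 26.2% of TRBV13-3 and 18.6% of TRBV17 cells. The share was lower under other names, such as 4.08% of TRBV1 and 3.76% of TRBV13-1 cells. Names and transcripts differed at 2 points. Contigs named TRBV10 went with Trbv4 transcripts in 99.4% of their 800 cells and with Trbv10 in 0%, and the annotation lists Trbv10 as a pseudogene at chr6:41091940-41092228 and Trbv4 as a gene at chr6:41059394-41059886. The contig name TRBV12-2+TRBV13-2 went with Trbv13-2 in 99.1% and with its neighbour Trbv12-2 in 31.8% of 1413 cells, so this name and TRBV13-2 are also given as a sum, chosen after the data were seen.

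TRBV19, TRBV13-1, TRBV31, TRBV5 and TRBV20 were the most used V segments, together with the names that point to Trbv13-2. Values are shares of clones over all T cells. TRBV19 took 10.4% and 10.8% of clones in the combination, 10.6% with S. chamaejasme (95% Wilson interval 9.53% to 11.8%, which covers counting error only) and 11.3% and 11.8% in the untreated group. TRBV13-1 took 10.9% and 9.49% in the combination, 10.9% with S. chamaejasme (9.79% to 12.05%) and 10.6% and 9.82% in the untreated group. TRBV31 took 10.3% and 9.25% in the combination, 9.36% with S. chamaejasme (8.36% to 10.5%) and 9.66% and 8.87% in the untreated group. Both combination libraries were below both untreated libraries for TRBV19, and the groups overlapped for TRBV13-1 and TRBV31. TRBV5 took 10.1% and 10.4% in the combination, 9.16% with S. chamaejasme (8.16% to 10.3%) and 7.09% and 9.24% in the untreated group, so both combination libraries were above both untreated libraries. TRBV20 took 8.82% and 8.71% in the combination, 9.60% with S. chamaejasme (8.59% to 10.7%) and 8.25% and 9.64% in the untreated group. The names TRBV12-2+TRBV13-2 and TRBV13-2 summed to 13.6% and 13.2% in the combination, 12.2% with S. chamaejasme and 12.8% and 13.4% in the untreated group. Among J segments TRBJ2-7 was the most used in every library, with 15.6% and 15.8% in the combination, 16.2% with S. chamaejasme (14.9% to 17.6%) and 16.7% and 15.4% in the untreated group. TRBJ1-5 was the least used in every library, with 2.75% to 3.46%. The rarest V segments were TRBV23 with 3 clones, TRBV26 with 24, TRBV12-2 with 26, TRBV15 with 29 and TRBV12-1 with 31 of the 13909. TRBV29 varied more than these common segments, at 3.32% and 8.53% of clones in the combination, 4.73% with S. chamaejasme and 6.29% and 4.89% in the untreated group.

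**Figure D1:**
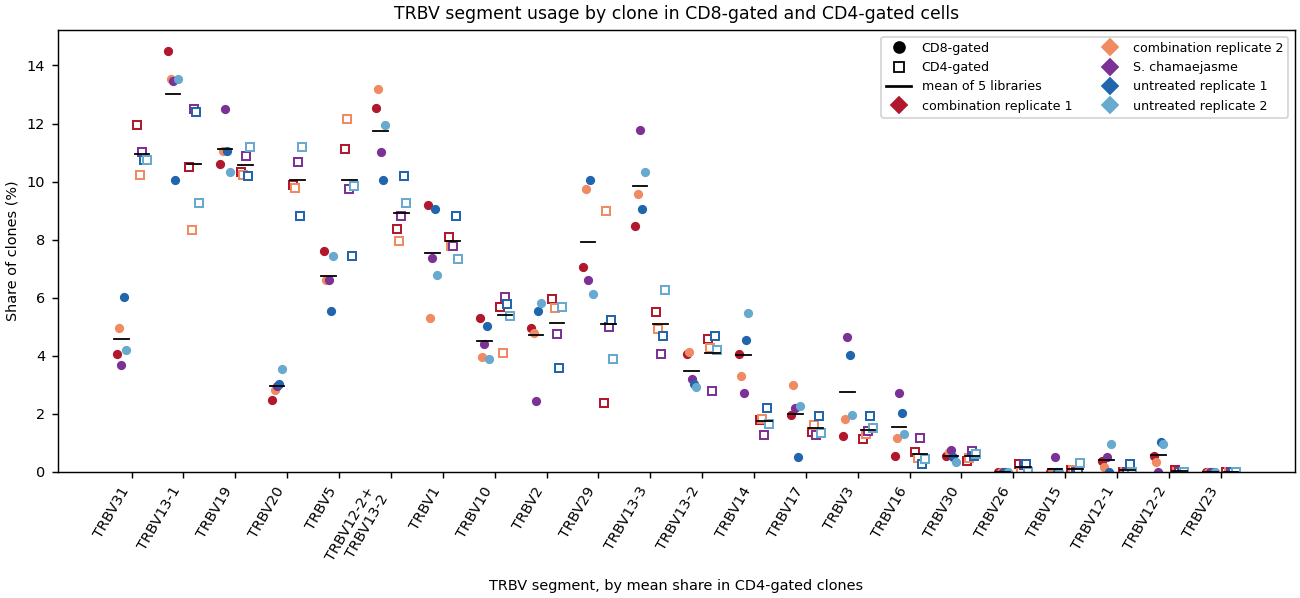
Share of clones (%, vertical axis) that used each TRBV segment in CD8-gated cells (filled circles, left of each pair) and CD4-gated cells (open squares, right), with 1 symbol per library, coloured by library, and a bar at the mean of the 5 libraries. TRBV20 and TRBV31 lie lower, and TRBV13-3 and TRBV14 higher, in CD8-gated cells with no overlap, and TRBV23 is at 0 in both gates.

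CD8-gated and CD4-gated cells drew on the V segments unequally. TRBV20 and TRBV31 were lower in CD8-gated cells, and TRBV13-3 and TRBV14 were higher. Of 34 segments, 29 had the 20 clones over both gates needed for the test, and 13 passed it in edgeR's quasi-likelihood fit with the library as a block, 7 higher and 6 lower in CD8-gated cells. The background over all V and J segments of both chains was 26 of 122 (21.3%), with 9.84% higher and 11.5% lower. TRBV12-1, TRBV12-2, TRBV15, TRBV23 and TRBV26 had too few clones for the fit. Where 5 values are listed for a class below, they belong to combination replicates 1 and 2, S. chamaejasme, and untreated replicates 1 and 2, in that order.

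TRBV20 took 2.47%, 2.81%, 2.94%, 3.02% and 3.55% of CD8-gated clones, against 9.90%, 9.77%, 10.7%, 8.82% and 11.2% of CD4-gated clones. Every CD8 value lay below every CD4 value, a log2 difference of -1.80 ± 0.20 (SE, adjusted p = 1.86e-11 in edgeR). TRBV31 took 4.06%, 4.95%, 3.68%, 6.03% and 4.19% of CD8-gated clones, against 11.9%, 10.2%, 11.0%, 10.7% and 10.8% of CD4-gated clones, again with no overlap (-1.30 ± 0.18, adjusted p = 3.13e-08). TRBV13-3 went the other way. It took 8.48%, 9.57%, 11.8%, 9.05% and 10.3% of CD8-gated clones, against 5.50%, 4.92%, 4.06%, 4.68% and 6.27% of CD4-gated clones (0.94 ± 0.17, adjusted p = 1.72e-05). TRBV14 took 4.06%, 3.30%, 2.70%, 4.52% and 5.48% of CD8-gated clones, against 1.79%, 1.81%, 1.28%, 2.20% and 1.64% of CD4-gated clones (1.15 ± 0.25, adjusted p = 0.000298). Both segments were higher in CD8-gated cells of all 5 libraries with no overlap between gates. These 4 segments passed the threshold in edgeR or DESeq2 under all 17 alternative settings tried, with adjusted p-values of at most 0.0170.

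The other 9 calls were smaller or rested on fewer clones. TRBV5 was lower in CD8-gated cells, at 7.60%, 6.601%, 6.62%, 5.53% and 7.42% of clones, against 11.1%, 12.2%, 9.73%, 7.44% and 9.85% of CD4-gated clones (-0.61 ± 0.16, adjusted p = 0.00369 in edgeR). TRBV29 was higher, at 7.07%, 9.74%, 6.62%, 10.1% and 6.13% of CD8-gated clones, against 2.35%, 8.99%, 4.98%, 5.23% and 3.88% of CD4-gated clones (0.65 ± 0.19, adjusted p = 0.00782). For both segments all 5 libraries went the same way, while the ranges of the gates overlapped. TRBV16 reached 0.530%, 1.16%, 2.70%, 2.01% and 1.29% of CD8-gated clones, against 0.680%, 0.453%, 1.16%, 0.276% and 0.448% of CD4-gated clones (1.07 ± 0.40, adjusted p = 0.0418). TRBV3 reached 1.24%, 1.82%, 4.66%, 4.02% and 1.94%, against 1.11%, 1.29%, 1.39%, 1.93% and 1.49% (0.81 ± 0.30, adjusted p = 0.0396). TRBV12-2+TRBV13-2 was higher in CD8-gated cells of 4 of 5 libraries (0.47 ± 0.15, adjusted p = 0.0194). Summed with TRBV13-2, it took 16.6%, 17.1%, 13.8%, 12.6% and 14.8% of CD8-gated clones, against 12.8%, 12.2%, 11.5%, 14.4% and 13.4% of CD4-gated clones, and the sum did not pass (0.28 ± 0.14, adjusted p = 0.145). The TRBV5 call was lost without combination replicate 2 (-0.50, adjusted p = 0.0750 in edgeR) and the TRBV29 call without combination replicate 1 (0.38, adjusted p = 0.141) or untreated replicate 2 (0.66, adjusted p = 0.0961). TRBV12-2+TRBV13-2 was lost without combination replicate 2 (0.37, adjusted p = 0.168) or untreated replicate 2 (0.48, adjusted p = 0.0778). TRBV16 and TRBV3 were lost when any library but combination replicate 1 was left out, at 0.93 to 1.02 and 0.48 to 0.92. The TRBV13 family as a whole held 31.8% to 40.2% of CD8-gated clones and 25.5% to 31.6% of CD4-gated clones.

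Of J segments, TRBJ2-7 was higher and TRBJ1-5, TRBJ2-2 and TRBJ1-3 were lower in CD8-gated cells. TRBJ2-7 took 19.1%, 17.7%, 21.3%, 23.6% and 22.3% of CD8-gated clones, against 16.3%, 14.9%, 16.0%, 14.9% and 14.6% of CD4-gated clones (0.40 ± 0.13, adjusted p = 0.0201 in edgeR). TRBJ1-5 took 2.30%, 2.64%, 1.72%, 1.51% and 1.61%, against 2.91%, 3.30%, 4.64%, 3.58% and 3.58% (-0.74 ± 0.26, adjusted p = 0.0290). TRBJ1-3 took 4.95%, 5.78%, 6.62%, 3.02% and 4.84%, against 7.42%, 7.96%, 6.84%, 9.37% and 7.31% (-0.53 ± 0.19, adjusted p = 0.0290). The gates did not overlap for these 3 segments. TRBJ2-2 took 5.48%, 4.29%, 4.41%, 3.52% and 3.55% of CD8-gated clones, against 5.01%, 6.99%, 8.46%, 5.51% and 7.16% of CD4-gated clones, lower in 4 of 5 libraries (-0.57 ± 0.20, adjusted p = 0.0290). TRBJ2-7 was lost without untreated replicate 2 (0.36, adjusted p = 0.109 in edgeR). TRBJ1-5 was lost without S. chamaejasme (-0.56), untreated replicate 1 (-0.69) or untreated replicate 2 (-0.68), and TRBJ2-2 without S. chamaejasme (-0.47), combination replicate 2 (-0.52) or untreated replicate 2 (-0.49). TRBJ1-3 was lost when any library but S. chamaejasme was left out, at -0.56 to -0.42. The 16 segments not called ranged from -0.49 (TRBJ1-6, adjusted p = 0.113) to 0.58 (TRBV17, adjusted p = 0.151) in edgeR. TRBV13-1 at 0.37 and TRBJ2-4 at -0.42 lay just outside the threshold (adjusted p = 0.0588 each), and TRBV19 was at 0.07 and TRBV1 at -0.11. The 13 calls became 4 in DESeq2, 4 when cells were counted in place of clones, 6 with TMM scaling, 5 with contigs of at least 3 UMIs and 8 with another gate. There were 13 without combination replicate 1, 7 without combination replicate 2, 11 without S. chamaejasme, 10 without untreated replicate 1 and 5 without untreated replicate 2.

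**Figure D2:**
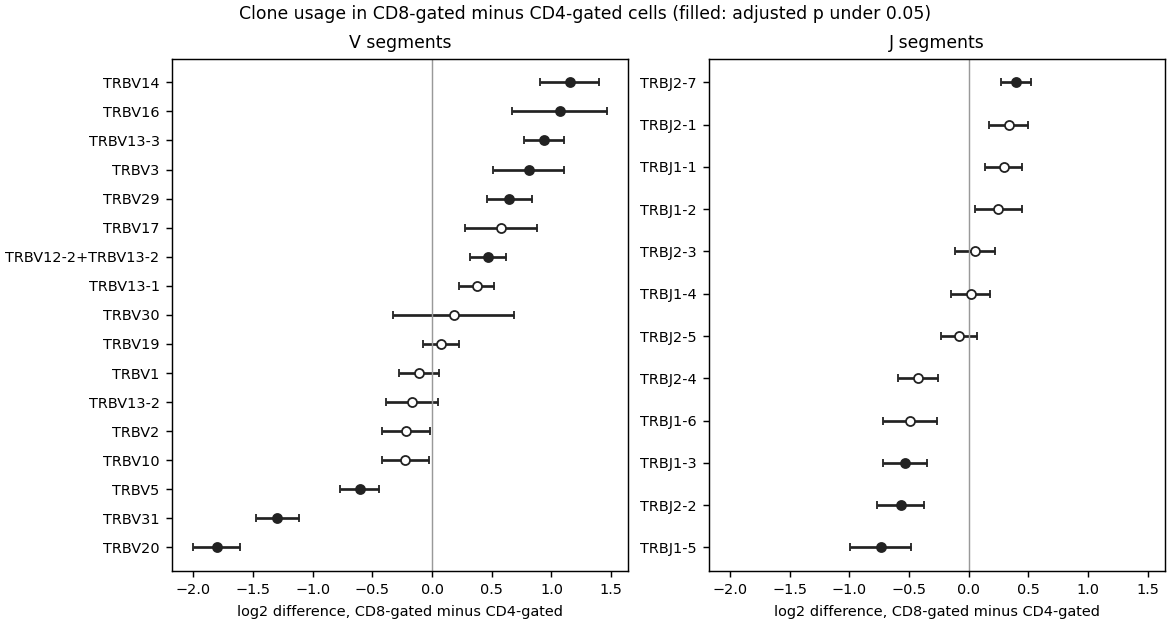
Log2 difference in the share of clones, CD8-gated minus CD4-gated (horizontal axis), for the 17 TRBV and 12 TRBJ segments tested. Points are edgeR estimates, bars are 1 SE, and filled points have an adjusted p under 0.05. TRBV20 (-1.80) and TRBV31 (-1.30) lie farthest to the left, and TRBV14 (1.15) farthest to the right.

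Cells from which no productive beta contig was assembled gave a second view of the same gates, through V transcripts in the RNA libraries. This measure was chosen after the data were seen. Of 5380 such cells, 862 had at least 2 UMIs of a leading V gene, with at least 2 times as many as the next, and 116 of these were CD8-gated and 254 CD4-gated. Trbv20 led in 1 of 116 CD8-gated and 17 of 254 CD4-gated cells (0.862% and 6.69%), and Trbv13-3 in 13 and 12 (11.2% and 4.72%). Trbv31 led in 10 and 28 (8.62% and 11.0%), and Trbv14 in 3 and 0 (2.59% and a share of up to 1.18% that a count of 0 allows). Trbv5 led in 5 and 17 (4.31% and 6.69%), Trbv16 in 5 and 5 (4.31% and 1.97%) and Trbv3 in 3 and 4 (2.59% and 1.57%). Trbv29 led in 3 and 16 (2.59% and 6.30%) and Trbv13-2 in 8 and 24 (6.90% and 9.45%), so both were lower in CD8-gated cells here, while the contig names TRBV29 and TRBV12-2+TRBV13-2 were higher. These cells were pooled over libraries and were not tested.

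Within the CD4 gate, Foxp3-positive cells used TRBV29 more than Foxp3-negative cells. Foxp3-positive cells had at least 1 Foxp3 UMI and numbered 153 and 155 in the combination, 63 with S. chamaejasme and 19 and 41 in the untreated group. Of 4 regulatory T cell markers checked, Ikzf2 was found in a median of 75.6% of Foxp3-positive against 14.6% of Foxp3-negative cells, Il2ra in 48.4% against 5.86%, and Ctla4 in 92.8% against 43.2%. A Foxp3 UMI was found in a median of 0.989% of CD8-gated cells. Of the 3 epithelial markers, Epcam had a UMI in 5.26% to 15.03% of Foxp3-positive and 0.535% to 1.95% of Foxp3-negative cells per library, Krt18 in 0% to 2.61% and 0.274% to 0.535%, and Krt8 in 0% of both. Of the 3 B cell markers, Cd79b had a UMI in a median of 3.87% and 0.452%, Cd79a in 0% and 0.326%, and Ms4a1 in 0% of both. The part of these markers in the result was not tested.

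TRBV29 took 4.73%, 22.4%, 19.1%, 21.1% and 24.4% of Foxp3-positive clones, against 2.11%, 7.51%, 3.87%, 4.35% and 2.54% of Foxp3-negative clones. It was higher in Foxp3-positive clones of all 5 libraries, and combination replicate 1 was far below the other 4 in the first class and lowest in the second. The log2 difference was 1.85 ± 0.23 (SE, adjusted p = 2.46e-12 in edgeR), and TRBV29 was the 1 segment called among 29 TRB segments tested, against a background of 1 of 120 segments (0.833%). The counts behind it were 7 of 148, 34 of 152, 12 of 63, 4 of 19 and 10 of 41 Foxp3-positive clones. Each of these clones held 1 Foxp3-positive CD4-gated cell, with any cells outside that class not counted. The clones used 4, 11, 8, 3 and 5 different J segments. Read the other way, 18.4%, 24.1%, 25.0%, 19.1% and 38.5% of TRBV29 cells in the CD4 gate were Foxp3-positive, against 8.77%, 8.22%, 5.45%, 4.03% and 4.59% of CD4-gated cells with another V segment. Median RNA depth of the TRBV29 cells was 3743 to 6275 UMIs and of the others 3826 to 5348 UMIs. Among the cells without a beta contig, Trbv29 led in 4 of 19 Foxp3-positive and 12 of 235 Foxp3-negative cells. The 4 were 3 of 8 cells in combination replicate 2 and 1 of 5 with S. chamaejasme. Combination replicate 1 had 0 of 4, untreated replicate 1 had 0 of 2, and untreated replicate 2 had 0 such cells. This pooled count was not tested.

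The next largest difference in this comparison was that of TRBV20, at 7.43%, 7.89%, 1.59%, 0% and 4.88% of Foxp3-positive clones, against 10.1%, 9.94%, 11.3%, 9.28% and 11.6% of Foxp3-negative clones. The value of 0 was 0 of 19 clones, which allows up to 15.8%. All 5 libraries were lower in Foxp3-positive clones with no overlap, yet the difference of -0.75 ± 0.27 did not pass (adjusted p = 0.237 in edgeR). The TRBV29 call held in 15 of 16 alternative settings, with log2 differences of 1.69 to 2.18. With no filter on low counts its adjusted p was 0.0511, and over all alternatives it ran from 1.87e-12 to 0.0511.

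**Figure D3:**
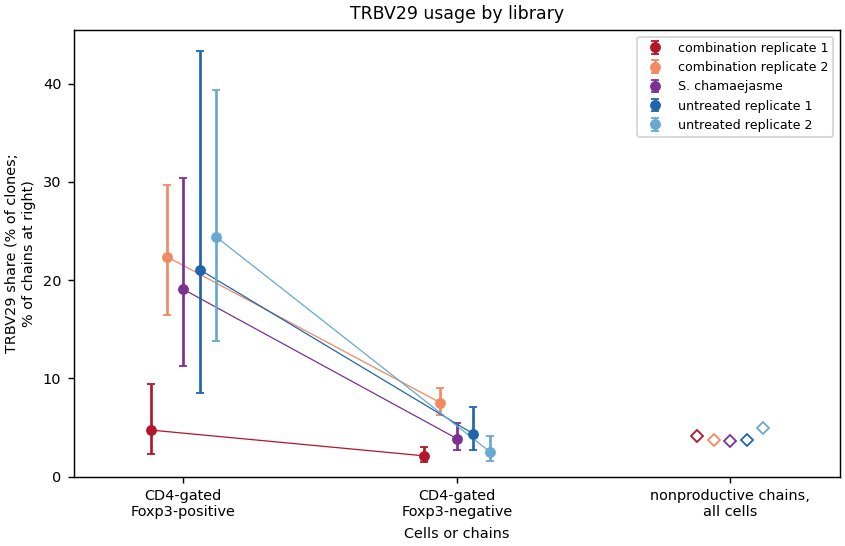
TRBV29 share (%, vertical axis) among Foxp3-positive and Foxp3-negative CD4-gated clones and among nonproductive beta chains of all cells, by library. Circles carry 95% Wilson intervals, lines join the classes of a library, and diamonds are nonproductive chains at 3.66% to 4.89%. Combination replicate 1 sits at 4.73% in Foxp3-positive clones, and the other 4 libraries lie between 19.1% and 24.4%.

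No TRB segment passed the test in the treatment comparisons given here. The comparison of the combination with the untreated group addressed the effect of both agents together, in all T cells and in each gate. In all T cells 0 of 33 segments were called against a background of 0% of 128, with 3 at an unadjusted p under 0.05 in edgeR and 0 in DESeq2. The 3 unadjusted ones were TRBV3, TRBV15 and TRBV5, chosen here by their p after it was seen. The 3 largest differences were those of rare segments, TRBV15 (-1.31 ± 0.61, adjusted p = 0.653), TRBV12-1 (-0.85 ± 0.67, adjusted p = 0.816) and TRBV12-2 (-0.76 ± 0.75, adjusted p = 0.921) in edgeR. TRBV15 had 0.102% and 0.160% of clones in the combination, against 0.443% and 0.272% in the untreated group. The difference of TRBV12-1 turned to 0.54 without untreated replicate 2.

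In CD8-gated cells 0 of 28 segments were called against a background of 0% of 96, with 2 at an unadjusted p under 0.05 in edgeR (TRBJ2-3 and TRBJ1-2) and 0 in DESeq2. The largest differences were those of TRBV16 (-0.86 ± 0.66, adjusted p = 0.827), TRBV3 (-0.83 ± 0.51, adjusted p = 0.801) and TRBJ1-2 (0.70 ± 0.31, adjusted p = 0.515). TRBJ1-2 took 7.07% and 8.25% of CD8-gated clones in the combination, 4.41% with S. chamaejasme (95% Wilson interval 2.81% to 6.87%) and 7.04% and 3.23% in the untreated group. In CD4-gated cells 0 of 29 TRB segments were called against a background of 0.833%, 1 of 120 segments and an alpha chain segment, with 1 TRB segment at an unadjusted p under 0.05 in edgeR (TRBJ2-1) and 0 in DESeq2. The largest differences were those of TRBV16 (0.54 ± 0.61), TRBV30 (-0.49 ± 0.56) and TRBV3 (-0.45 ± 0.35), each with an adjusted p of 0.878 in edgeR. Whether the gap between gates itself differed between the combination and the untreated group was tested as an interaction, and 0 of 29 segments were called against a background of 0% of 122, with 1 at an unadjusted p under 0.05 in edgeR (TRBJ2-3) and 0 in DESeq2. The largest interactions were those of TRBV16 (-1.40 ± 1.07, adjusted p = 0.822), TRBV30 (1.06 ± 1.36, adjusted p = 0.871) and TRBJ1-5 (0.85 ± 0.67, adjusted p = 0.822).

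S. chamaejasme alone was compared with the untreated group in all T cells on 1 library, which was assumed to vary like the others. Its values within the gates are not given here. The combination was not compared with S. chamaejasme alone. No segment of 33 was called against a background of 0% of 128, with 0 at an unadjusted p under 0.05 in edgeR and 0 in DESeq2. The largest differences were those of TRBV26 (1.30 ± 0.72), TRBV12-2 (1.17 ± 0.68) and TRBV12-1 (0.89 ± 0.62), each with an adjusted p of 0.927 in edgeR. These segments held 0.377% (0.211% to 0.674%), 0.412% (0.236% to 0.718%) and 0.446% (0.261% to 0.761%) of clones with S. chamaejasme, and untreated means of 0.178%, 0.179% and 0.203%.

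CDR3 length was nearly the same in the gates, and its SD was larger in CD8-gated clones of all 5 libraries. Lengths are in amino acids from the conserved cysteine to the conserved phenylalanine, averaged over clones. Mean length was 13.86, 13.86, 14.07, 14.04 and 14.03 in CD8-gated clones, against 13.94, 14.08, 13.96, 13.92 and 13.95 in CD4-gated clones. The difference of 0.0015 had an exact two-sided sign-flip p of 0.938 over the 5 libraries, and its sign changed when a library was left out. The SD of length was 1.57, 1.57, 1.58, 1.60 and 1.59 in CD8-gated clones, against 1.44, 1.41, 1.46, 1.45 and 1.35 in CD4-gated clones. It was larger in CD8-gated clones of 5 of 5 libraries by 0.159 on average, with an exact p of 0.0625, the smallest that 5 libraries allow. Bases of the CDR3 that matched the germline J end averaged 17.9 in CD8-gated and 18.5 in CD4-gated clones, lower in CD8-gated cells of 5 of 5 libraries (exact p = 0.0625). J ends differ in length and the gates differed in J usage, and the part of this in the gap was not tested. Bases that matched neither the V nor the J end averaged 10.3 and 9.96, higher in CD8-gated cells of 4 of 5 libraries (exact p = 0.125). The SD and the base counts were chosen after the data were seen.

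In CD8-gated clones mean length averaged 13.86 in the combination and 14.03 in the untreated group, and both combination libraries were below both untreated libraries. The exact two-sided permutation p was 0.333, the smallest that 2 against 2 libraries allow, so no difference could have passed the threshold. In CD4-gated clones it averaged 14.01 and 13.94, with overlapping groups (exact permutation p = 0.667). Length differed with the segments. Over all T cells, clones with TRBV20, whose germline end is among the shortest, averaged 13.17 amino acids, and those with TRBV5 and TRBV2 averaged 14.56 and 14.53. Clones with TRBJ2-7, the shortest J end, averaged 13.21, and those with TRBJ2-2 14.73. TRBV29 clones averaged 13.26 in CD8-gated and 14.12 in CD4-gated cells, over 165 and 265 clones, a gap that was seen in the data first and was not tested.

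**Figure D4:**
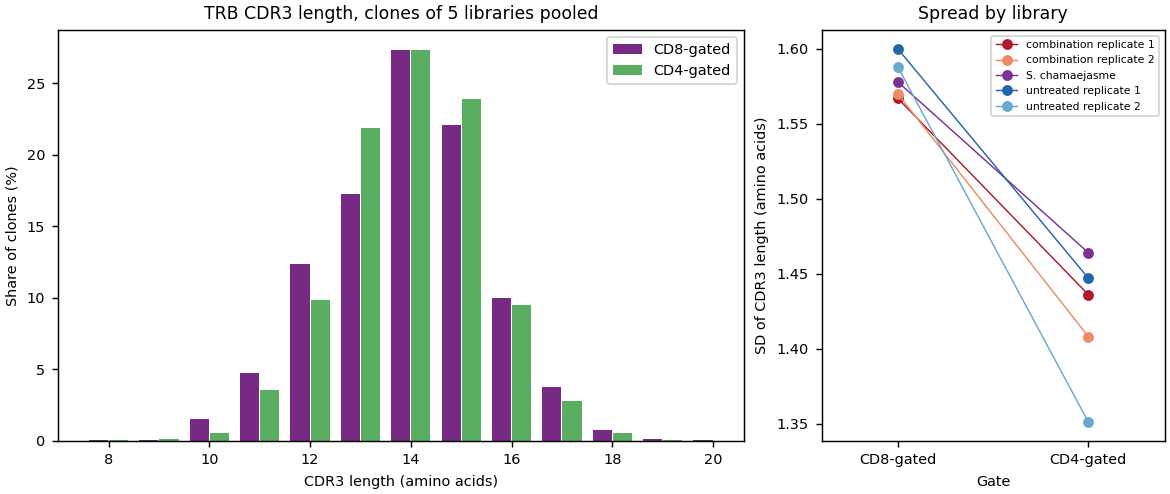
Left, share of clones (%) at each CDR3 length in amino acids, CD8-gated and CD4-gated clones pooled over 5 libraries. Right, SD of CDR3 length per library in each gate, with a line per library and an axis that does not start at 0. The CD8-gated SD is above 1.56 and the CD4-gated SD below 1.47 in all 5 libraries.

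Productive chains were also set against nonproductive ones, which a cell can transcribe from its other allele without using them in a receptor. This comparison was added after the data were seen. It used 16780 productive chains and 3218 nonproductive chains that spanned a full V segment, counted over all T cells. Of 34 TRB segments 20 were called in edgeR, 10 higher and 10 lower in productive chains, against a background of 60 of 139 segments of both chains (43.2%, with 19.4% higher and 23.7% lower). TRBV23 stood apart. It was found in 4 of 16780 productive chains and in 305 of 3218 nonproductive ones, in 2, 0, 2, 0 and 0 productive chains per library, against 11.4%, 9.25%, 8.35%, 6.39% and 9.59% of nonproductive chains (-8.29 ± 0.29, adjusted p = 1.49e-12). TRBV23 was thus among the most used segments in nonproductive chains and nearly absent from productive ones in every library.

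A further 5 V segments were below 1% of productive chains and above 2% of nonproductive chains on average over libraries, TRBV26 (-4.18), TRBV15 (-4.15), TRBV12-2 (-4.04), TRBV12-1 (-3.90) and TRBV16 (-2.63), with adjusted p-values of 1.18e-07 or less in edgeR except TRBV12-1 at 1.71e-07. TRBV15 took 0.134%, 0.208%, 0.550%, 0.488% and 0.275% of productive chains, against 5.64%, 5.85%, 6.44%, 4.51% and 3.72% of nonproductive chains. TRBV3 took 1.78% of productive and 5.03% of nonproductive chains pooled over libraries (-1.50 ± 0.19, adjusted p = 8.58e-06). TRBV10, whose germline end carries the in-frame stop codon, took 5.29% and 9.04% (-0.79 ± 0.14, adjusted p = 0.000278). Among the higher segments were TRBV12-2+TRBV13-2 at 9.04% and 2.55% (1.83 ± 0.15, adjusted p = 6.33e-08), TRBV20 at 8.61% and 3.54% (1.28 ± 0.13, adjusted p = 6.29e-07) and TRBV2 at 4.37% and 1.86% (1.23 ± 0.19, adjusted p = 9.57e-05). TRBV20 took 8.85%, 8.52%, 8.18%, 8.22% and 9.24% of productive chains, against 3.76%, 3.51%, 3.22%, 3.38% and 3.72% of nonproductive chains, with no overlap. The other V calls were TRBV1 (1.11), TRBV13-1 (0.78), TRBV5 (0.62), TRBV19 (0.59), TRBV13-2 (0.56) and TRBV13-3 (0.54), all higher, and TRBV17 (-0.91), lower. TRBV31 at 9.50% and 7.96% and TRBV29 at 5.36% and 4.01% were not called (adjusted p = 0.0894 and 0.102). J segments moved less, with TRBJ1-1 higher (0.37 ± 0.12, adjusted p = 0.0188) and TRBJ2-7 lower (-0.24 ± 0.09, adjusted p = 0.0459). DESeq2's size factors raised all segments by a median of 0.77 on the log2 scale, which gave 18 higher and 6 lower calls, and TRBV10, TRBV17, TRBV3 and TRBJ2-7 were then no longer called. Shares are those of chains recovered as full-length contigs, 3249 of 12944 nonproductive beta contigs before the filter on cells.

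**Figure D5:**
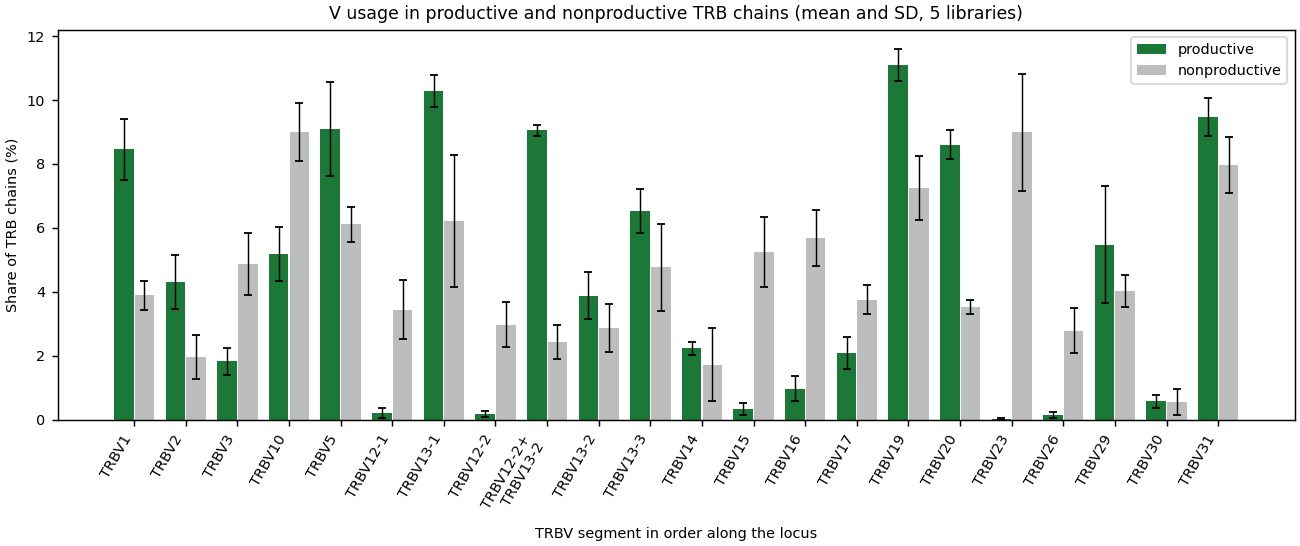
Share of beta chains (%) by TRBV segment, in productive and nonproductive chains of all T cells, as means with SD over 5 libraries. Segments run in their order along the locus, with TRBV10 at the place of Trbv4. TRBV23 averages 8.99% of nonproductive chains and 0.0189% of productive chains.

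TRBV12-1, TRBV12-2, TRBV15, TRBV16 and TRBV26, the 5 segments named above for their low share of productive and higher share of nonproductive chains, made up a larger share of clones with RNA of Fcer1g, which encodes the signalling gamma chain of Fc receptors. The segments and the split were chosen after the data were seen, and the difference was not tested. In clones with at least 2 Fcer1g UMIs they made up 3 of 33 and 2 of 26 in the combination, 24 of 115 with S. chamaejasme and 0 of 4 and 3 of 20 in the untreated group, 32 of 198 in all (16.2%, 95% Wilson interval 11.7% to 21.9%). In clones without Fcer1g they made up 200 of 13614 (1.47%, 1.28% to 1.69%). Most of the Fcer1g clones came from the S. chamaejasme library, where the share was 20.9% (14.4% to 29.2%). The same segments made up 49 of 2089 CD8-gated clones (2.35%) and 45 of 5059 CD4-gated clones (0.890%).

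The second J cluster supplied 61.4% of the 13909 clones. D segments were traced by 6-base words taken from their germline sequence, GACAGG for TRBD1 and GACTGG for TRBD2, searched on the coding strand in the part of the CDR3 that matched neither V nor J. Clones with a J of the first cluster held the TRBD1 word in 21.7% and the TRBD2 word in 0 of 5369, which allows a share of up to 0.0559%. Clones with a J of the second cluster held the TRBD1 word in 12.2% and the TRBD2 word in 17.4% of 8540. TRBD2 lies between the clusters, and the first J cluster has only TRBD1 ahead of it. Of productive contigs with a J of the first cluster, 6473 (96.7%) were given the constant gene TRBC1, and all 10193 with a J of the second cluster had no constant gene name in the files.

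Of 166 V and J pairs with at least 20 clones expected, 3 were at 1.5 times the expected number or more. TRBV3 with TRBJ2-5 was found in 59 clones against 25.9 expected, a ratio of 2.28, and was above expectation in 5 of 5 libraries. TRBV3 with TRBJ1-1 was the lowest, at 9 clones against 21.4. These ratios are a description of pairs picked by their size.

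Shares by cell and by clone differed in CD8-gated cells with S. chamaejasme. There 49.4% of cells belonged to clones of at least 2 cells, with 10.6% and 14.0% in the combination and 41.1% and 22.2% in the untreated group. With S. chamaejasme, TRBV13-3 took 19.2% by cell and 11.8% by clone (95% Wilson interval by clone 8.99% to 15.2%), TRBV1 was at 12.4% and 7.35% (5.20% to 10.3%), and TRBJ1-2 at 16.8% and 4.41% (2.81% to 6.87%). In the CD4 gate 17.99% of cells were in such clones with S. chamaejasme, 8.57% and 7.25% in the combination and 12.5% and 7.13% in the untreated group. The 3 largest clones of the S. chamaejasme library held 60, 55 and 50 of its 3657 cells. The CDR3 of the largest clone of each library and of the next 2 with S. chamaejasme are given 5′ to 3′, with capitals for bases that matched neither germline end, and the number of cells in the name.
S. chamaejasme, TRBV1 with TRBJ1-2, 60 cells: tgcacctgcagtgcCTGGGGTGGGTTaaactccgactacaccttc
S. chamaejasme, TRBV19 with TRBJ1-2, 55 cells: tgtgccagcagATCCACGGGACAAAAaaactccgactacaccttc
S. chamaejasme, TRBV13-3 with TRBJ1-4, 50 cells: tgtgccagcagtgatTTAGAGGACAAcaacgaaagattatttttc
combination replicate 1, TRBV31 with TRBJ2-5, 10 cells: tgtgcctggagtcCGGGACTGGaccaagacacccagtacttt
combination replicate 2, TRBV12-2+TRBV13-2 with TRBJ1-2, 7 cells: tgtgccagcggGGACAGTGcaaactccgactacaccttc
untreated replicate 1, TRBV17 with TRBJ1-1, 17 cells: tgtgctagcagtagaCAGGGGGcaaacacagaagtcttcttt
untreated replicate 2, TRBV5 with TRBJ2-4, 19 cells: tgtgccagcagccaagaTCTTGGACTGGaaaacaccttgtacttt
Of the 3 largest clones with S. chamaejasme, 56, 45 and 48 cells were CD8-gated and 0 were CD4-gated. The largest clone of untreated replicate 1 had 6 CD4-gated and 0 CD8-gated cells, and that of untreated replicate 2 had 18 CD8-gated cells. In combination replicate 2 a clone of TRBV17 with TRBJ1-1, not shown here, also held 7 cells and tied with the one listed.

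The nucleotide sequence of the TRBV17 clone of untreated replicate 1 was also found with S. chamaejasme, and its amino acid chain in 3 libraries. Of 13823 distinct nucleotide sequences, 83 (0.600%) were found in at least 2 libraries, and these carried a mean of 5.87 bases outside the germline ends, against 10.0 in sequences of 1 library. Over amino acids, 273 of 13520 chains (2.02%) were shared. The shared amino acid chain with the most cells was the TRBV17 with TRBJ1-1 chain. It was found in 3 libraries as 5 nucleotide sequences and 44 cells, 21 of them CD4-gated, 0 CD8-gated and 0 Foxp3-positive. It was picked for its size after the data were seen. The 5 sequences encode the same amino acids.
untreated replicate 1 (17 cells) and S. chamaejasme (11 cells): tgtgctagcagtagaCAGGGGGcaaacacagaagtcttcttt
S. chamaejasme (12 cells): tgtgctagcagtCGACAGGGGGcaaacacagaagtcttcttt
S. chamaejasme (1 cell): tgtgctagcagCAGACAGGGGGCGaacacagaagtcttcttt
combination replicate 2 (2 cells): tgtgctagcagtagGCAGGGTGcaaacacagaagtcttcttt
combination replicate 2 (1 cell): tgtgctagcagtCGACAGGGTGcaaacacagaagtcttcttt
Counted from 1 at the 5′ end of the CDR3, the second sequence differs from the first by A13C, the third by T12C and A24G, the fourth by A15G and G21T, and the fifth by A13C and G21T. Of the 39 cells of this chain with an alpha chain, 33 (84.6%) carried TRAV9 with TRAJ34, in all 3 libraries and as 7 alpha sequences, while 88 of 13438 cells in all (0.655%) did. Other shared chains were TRBV17 with TRBJ1-4 (4 libraries, 19 cells), TRBV10 with TRBJ1-1 (3 libraries, 17 cells), TRBV5 with TRBJ2-7 (4 libraries, 8 nucleotide sequences, 16 cells) and TRBV1 with TRBJ2-7 (5 libraries, 7 cells). Of these 4 chains, 0 cells were Foxp3-positive.

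Cells with invariant alpha chains were looked up as well. Invariant NKT cells read lipids on CD1d and in mice are known to pair with TRBV13-2, TRBV29 and TRBV1. They were taken as cells with TRAV11 or TRAV11D and TRAJ18. They numbered 42, each with its own beta clone, and 50.0% had a UMI of Zbtb16, the transcription factor gene of innate-like T cells, against 1.19% of all cells. The TRBV13 family was used by 23 of them (54.8%, 95% Wilson interval 40.0% to 68.8%), TRBV1 by 9 (21.4%) and TRBV29 by 5 (11.9%). Of the 23, 16 had the name TRBV12-2+TRBV13-2, 1 TRBV13-2, 5 TRBV13-1 and 1 TRBV13-3. Among all T cells the family held 28.5% to 31.1% of cells per library. The names TRBV12-2+TRBV13-2 and TRBV13-2 together held 11.8% to 13.7%, TRBV1 7.38% to 9.86% and TRBV29 3.48% to 8.16%. Of 10 cells with the MAIT alpha chain TRAV1 with TRAJ33, 7 used the TRBV13 family.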

How the data were processed

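Both kinds of library were made with the 5′ version of the 10x Chromium chemistry, per the labels' protocols. Cell Ranger 3.1.0, STAR and the mm10 genome are named in the submitters' processing notes. For STAR's version and the annotation release the sources used here give nothing. The authors deposited raw UMI counts per gene and barcode, and contig tables with counts of reads and UMIs per contig and text annotation; no normalization was applied to either.

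Cells with at least 300 genes, at most 10% mitochondrial UMIs and exactly 1 productive beta chain were used. The 619 barcodes with 2 or more such chains were left out, and no doublet caller was run. The comparison of productive with nonproductive chains differed, as it counted chains per cell and set no limit on productive beta chains. Clones per segment, or chains in that comparison, were fitted in R 4.3.3 with edgeR 4.0.16 (quasi-likelihood, no abundance trend, two-sided). Fits were within the total of each segment kind, for V and J segments of both chains together with at least 20 clones or chains. A Benjamini-Hochberg adjusted p under 0.05 over all of them was called. DESeq2 1.42.0, TMM scaling, other filters, gates and clone definitions, and leaving out each library were alternatives. Gate and Foxp3 comparisons had the library as a block, since both classes come from the same library. The fits of the combination in all T cells and of the gates were tried on simulated counts with known changes. Those counts had the same set spread for every segment, not a spread estimated from these data. The other comparisons were not tried in this way. Lengths were compared with exact permutation tests over libraries. Python 3.11.15, pandas 2.3.3, numpy 2.4.6, scipy 1.17.1 and matplotlib 3.10.9 were used.

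Segments described in full were, per comparison, those called (the 10 with the largest log2 difference and, in shorter form, the rest) or otherwise the 3 with the largest difference, beside the most and least used. The members, lists and gates were chosen with earlier results of these data known. Intervals are 95% Wilson intervals, and a count of 0 is given the share of 3 counts; both cover counting error only.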

Additional observations from a re-analysis of the deposited data

Results flagged for a closer look

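TRBV29 took 4.73% of Foxp3-positive clones in combination replicate 1, far below the other 4 libraries relative to their range. It was 1 of 28 values checked in this way, and chance alone marks about 1 in 20. Its 7 of 148 clones have a 95% Wilson interval of 2.31% to 9.44%. The same library also had the lowest TRBV29 share of Foxp3-negative clones, at 2.11%, while its nonproductive chains were at 4.09%, beside 3.66% to 4.89% in all 5 libraries.

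TRBV23 took 9.48% of the nonproductive full-length beta chains, pooled over libraries, which are data outside the main measurement. It made up 0.0238% of productive chains.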

How the results depend on the processing

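Of single-segment values under alternatives, 471 kept their direction and side of the threshold, 68 lost their call and 3 changed sign, and the cause was not tested. The count of 13 called TRB segments between gates was 4 in DESeq2, 6 with TMM scaling, 8 with the alternative gate (at least 1 CD8 UMI, at least 2 Cd4 UMIs), 4 by cells, 5 with contigs of at least 3 UMIs, and 5 to 13 when a library was left out. Without a filter on low counts, the Foxp3 comparison had 0 calls. Leaving out a library gave 1 call in that comparison, 16 to 21 between productive and nonproductive chains, and 0 in the treatment comparisons. The sign changed for TRBV12-1 in the combination without untreated replicate 2 (range -2.07 to 0.54 when a library was left out), and with the alternative gate for TRBV3 in CD4-gated cells (0.092) and for the TRBJ1-5 interaction (-0.0158). The CDR3 length difference between gates was -0.0035 with all productive chains, -0.0255 with the alternative gate and -0.0262 to 0.0561 when a library was left out. The treatment difference in length ran from -0.175 to -0.169 in CD8-gated and -0.000504 to 0.138 in CD4-gated cells when a library was left out. By medians all 3 length differences were 0. TMM scaling moved the median TRB segment by -0.14 between gates and by -0.17 in the interaction, and DESeq2 moved it by -0.26 in the Foxp3 comparison and by -0.17 between treatments in CD8-gated cells. The spread of length, J bases and bases outside the germline ends kept their direction in all alternatives.

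Without the replicate block, 14 TRB segments were called between gates, 1 in the Foxp3 comparison and 20 between productive and nonproductive chains. TRBV29 lost its call between gates (0.60, adjusted p = 0.0658 in edgeR, over alternatives 0.00111 to 0.404). Libraries could not be paired across treatment groups, because the labels number no replicates and tie no library to a shared animal, batch or day. The replicate numbers used here follow the order of the samples and only name them. Comparisons of gates, Foxp3 classes and productive with nonproductive chains were paired within the library. Counts of 0 to a few clones limit the rare segments.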
